A study of Mus musculus with 6 samples.

Results

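The matrix-binding integrins of the infarcted mouse heart were examined as a set of 10 genes, picked by gene symbol from the 38293 genes of the count table. The set holds the muscle alpha subunit Itga7, the fibroblast alpha subunits Itga8 and Itga11, and the vascular or widely shared subunits Itga1, Itga5, Itga6, Itgav, Itgb1, Itgb3 and Itgb5. All 10 were found in the table and all passed the filter on low counts. Bulk RNA-seq of heart tissue was available for 3 WT and 3 Zeb2 cKO samples, taken 14 days after permanent occlusion of the left anterior descending coronary artery (myocardial infarction, MI). The mice were of the C57BL/6J (backcrossed) strain. The methods describe adult males. The methods name the mice labelled WT Zeb2 fl/fl, so both groups carried the floxed Zeb2 alleles. Zeb2 cKO mice additionally carried a Cre recombinase driven by the Myh6 promoter, which is active in cardiomyocytes, and no group with Cre alone was part of the comparison. The effects of Cre and of the deletion therefore cannot be told apart. The labels place the tissue in the border region of the infarct, while the methods name the remote zone.

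Integrins are receptors made of an alpha and a beta subunit that span the cell membrane. Outside the cell they hold on to laminins, collagens, fibronectin or vitronectin, and inside the cell they are coupled to actin through talin, kindlin and vinculin. The alpha subunit largely sets which matrix protein is bound. In the heart, laminin receptors fasten cardiomyocytes to their basement membrane, collagen receptors serve fibroblasts in the scar, and receptors for fibronectin and vitronectin take part in vessel growth and in the release of active TGF-beta.

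Libraries held between 37288174 and 51136331 counts, of which 60.5% to 67.0% came from mitochondrially encoded genes. Expression is given as CPM, a gene's counts relative to the TMM-scaled size of its library. Genotype was tested by the quasi-likelihood method of edgeR over 14746 genes, and a gene was called at an adjusted p under 0.05 after Benjamini-Hochberg adjustment over all of them. Zeb2, the deleted gene, was at 61.3, 116 and 71.9 CPM in WT replicates 1, 2 and 3, against 59.6, 72.6 and 66.5 CPM in the cKO libraries, so the groups overlapped for the targeted gene in whole tissue (log2 fold change -0.33, standard error, SE, 0.25, and -0.0058 without WT replicate 2). WT replicate 2 stood apart from the other libraries, and the log2 fold changes are therefore given with and without it. The summed level of 8 cardiomyocyte markers was 11113 CPM in that library and between 17959 and 22553 CPM in the others. The summed level of 8 fibroblast markers was 2684 CPM against 941 to 1434 CPM, that of 8 scar fibroblast markers was 1919 CPM against 226 to 622 CPM, and that of 8 macrophage markers was 814 CPM against 203 to 285 CPM. For 8 endothelial markers it was 407 CPM against 520 to 624 CPM, and for 8 mural cell markers 673 CPM against 930.2 to 1059 CPM. Platelet markers summed to at most 9.25 CPM, those of Schwann cells to at most 15.8 CPM and those of lymphocytes to at most 4.37 CPM in any library.

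Compared with WT hearts, 0 of the 10 integrin genes were called in Zeb2 cKO hearts in either direction, beside 0% of all tested genes. At an unadjusted p under 0.05, edgeR's quasi-likelihood test found 0 of the 10, against 1.9% of all tested genes (280 genes), and DESeq2 called 0 of the 10 as well. The adjusted p from edgeR lay between 0.957 and 0.999. In 0 of the 10 did all libraries of one genotype lie above all of the other, whereas 6.36% of the tested genes showed such a separation. The fitted log2 fold change (Zeb2 cKO over WT) was under -0.2 for 4 members (Itga11, Itgb5, Itgav and Itgb1), where 22.6% of all genes were, and over 0.2 for Itga7 alone, where 15.9% of all genes were. The median of the members was -0.060, beside -0.0069 for all tested genes. Without WT replicate 2 the median of the members was -0.016. Below 0 were then 5 members, as were 49.1% of all genes (with all libraries 7 members and 51.4% of genes). The median of the members was -0.19 without WT replicate 1, where that of all genes was 0.0059. Without Zeb2 cKO replicate 3 these medians were -0.28 and -0.012. WT replicate 2 was the highest library for 6 members and the lowest for Itga7 and Itga1. It was the highest for 35.2% of all tested genes and the lowest for 34.6%. With Zeb2 cKO replicate 3 left out, the remaining cKO libraries were below every WT library for 4 members (Itga5, Itgav, Itgb1 and Itgb5), as for 10.8% of genes. They were above every WT library for Itga6 without Zeb2 cKO replicate 1 (5.8% of genes) and for Itga7 without Zeb2 cKO replicate 2 (6.42% of genes). In bulk tissue a smaller number of cells of a type and less RNA per cell cannot be told apart.

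**Figure D1:**
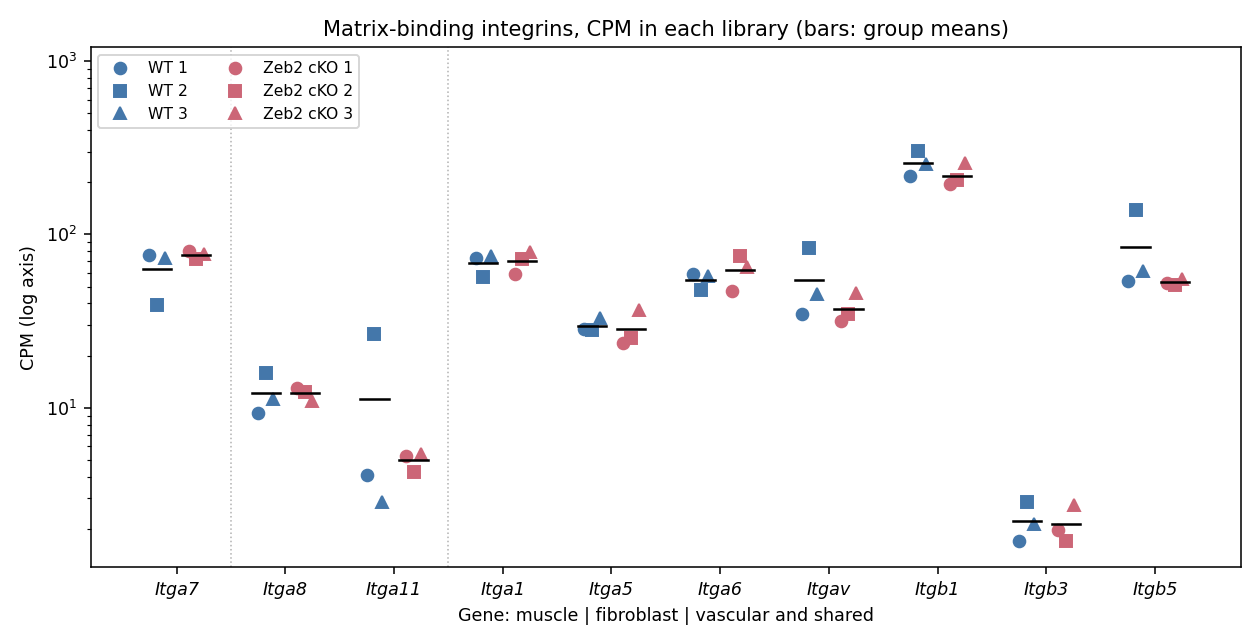
CPM on a log axis for the 10 integrin genes, with WT libraries in blue, Zeb2 cKO libraries in red, a marker shape for each replicate number and black bars for group means. WT replicate 2 (blue squares) is the lowest library for Itga7 and the highest for Itga11, at 26.7 CPM, and the groups overlap for every gene.

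Levels between genes were compared as CPM per kilobase of annotated exon. Itgb1, the beta subunit shared by most of the alpha subunits here, was the most abundant at 58.3 CPM per kilobase (47.6 to 74.2 over the 6 libraries). Itgb5, a partner of the alpha V subunit, came next at 19.3 ± 9.60 (SD over the 6 libraries), and Itgb1 exceeded it in 6 of 6 libraries. Among the alpha subunits the order was Itga7 (8.60 ± 1.87), Itga6 (6.50 ± 1.18), Itga5 (5.90 ± 0.979), Itgav (4.27 ± 1.78), Itga1 (3.73 ± 0.494), Itga8 (1.65 ± 0.307) and Itga11 (1.58 ± 1.79 CPM per kilobase). Itga7 was above Itga6 in 5 of 6 libraries, the exception being WT replicate 2. Itga6 was above Itga5 in only 3 of 6 and Itgav above Itga1 in only 2 of 6 libraries. Itga5 was above Itgav, and Itga8 above Itga11, in 5 of 6 libraries. The ranges of Itga7, Itga6, Itga5, Itgav and Itga1 overlapped from each gene to the next, as did those of Itga8 and Itga11. Itga1 was above Itga8 in 6 of 6 libraries. Itgb3, the beta subunit best known from platelets and activated endothelium, was the lowest at 0.371 ± 0.0856 CPM per kilobase. When the longest transcript replaced the sum of exons, the order of the means was the same, but Itga7 (17.3 ± 3.76) reached Itgb5 (20.9 ± 10.4), which was then the higher gene in 2 of 6 libraries.

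The muscle member Itga7 (ENSMUSG00000025348, chromosome 10 of GRCm38, 128933818 to 128958282, plus strand) encodes the laminin-binding alpha subunit of heart and skeletal muscle. It was at 75.7, 39.3 and 73.3 CPM in WT replicates 1, 2 and 3, against 80.4, 71.8 and 76.8 CPM in the cKO libraries in the same order. A single WT library was low, and the other 5 libraries lay within a 1.12-fold range. The group means were 62.8 ± 20.4 CPM (WT) and 76.3 ± 4.30 CPM (Zeb2 cKO), as mean ± SD of 3 libraries, and edgeR's quasi-likelihood test gave a log2 fold change of 0.28 (SE 0.25) at an adjusted p of 0.957. Without WT replicate 2 the log2 fold change was 0.038 (SE 0.096). In WT replicate 2 Itga7 was at 0.520 times the mean of the other libraries. That library was the lowest for 34.6% of all tested genes. It was also the lowest for 7 of 8 cardiomyocyte, 6 of 8 endothelial and 7 of 8 mural cell markers. Their part in the difference was not tested.

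The fibroblast member Itga11 (ENSMUSG00000032243, chromosome 9, 62677826 to 62783982, plus strand) encodes a receptor for fibrillar collagen that is typical of fibroblasts and myofibroblasts. It was at 4.12, 26.7 and 2.86 CPM in WT replicates 1, 2 and 3, from 155, 1173 and 110 counts. The cKO libraries had it at 5.28, 4.26 and 5.42 CPM, from 264, 185 and 291 counts. WT replicate 2 was 6.09 times the mean of the other libraries, the widest departure of any member, while the remaining WT libraries were the lowest of all 6. The means were 11.2 ± 13.4 CPM (WT) and 4.98 ± 0.629 CPM (Zeb2 cKO), as mean ± SD of 3 libraries, and the log2 fold change was -1.18 (SE 0.80) at an adjusted p of 0.957 (edgeR). Without WT replicate 2 the direction turned, to a log2 fold change of 0.52 (SE 0.20, unadjusted p = 0.0324, adjusted p = 0.9997 from edgeR, where 1.55% of all genes were higher at an unadjusted p under 0.05). Every Zeb2 cKO library then lay above both remaining WT libraries, as 8.31% of the genes tested in that comparison did in this direction. At 2 against 3 libraries an exact permutation test cannot give a p under 0.1.

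Itga8 (ENSMUSG00000026768, chromosome 2, 12106632 to 12301922, minus strand), the alpha subunit for nephronectin that is found on mesenchymal and smooth muscle cells, varied less. It was at 9.32, 15.95 and 11.2 CPM in the WT libraries, against 13.05, 12.4 and 10.9 CPM in the cKO libraries. WT replicate 2 was again the highest library, at 1.40 times the mean of the others. The log2 fold change was -0.0062 (SE 0.21), and it was 0.24 (SE 0.13) without WT replicate 2 (unadjusted p = 0.107, edgeR). All 8 fibroblast, all 8 scar fibroblast and all 8 macrophage markers were also highest in WT replicate 2. Their part in the values of Itga8 and Itga11 was not tested.

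**Figure D2:**
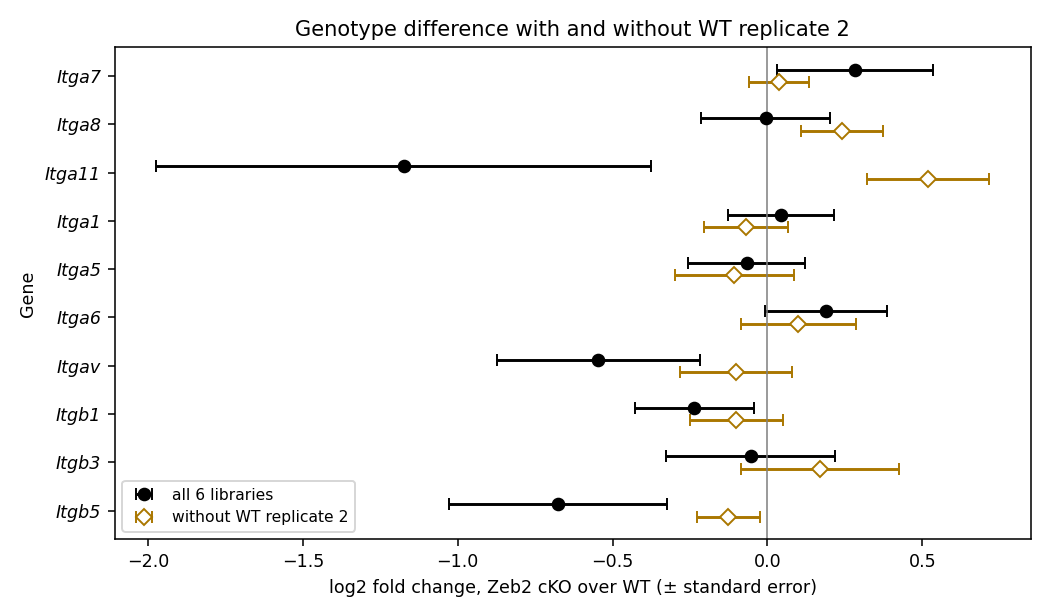
Log2 fold change of Zeb2 cKO over WT for each integrin gene with its standard error, from all 6 libraries (black circles) and without WT replicate 2 (open diamonds). Itga11 moves from -1.18 to 0.52, Itgb5 from -0.68 to -0.13 and Itgav from -0.55 to -0.10, while Itga7 moves from 0.28 to 0.038.

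Among the vascular and shared alpha subunits were the laminin receptor Itga6, the fibronectin receptor Itga5 and the collagen receptor Itga1. With all libraries their log2 fold changes lay between -0.067 and 0.19, each no larger than its SE. Itga6 (ENSMUSG00000027111, chromosome 2, 71745616 to 71858416, plus strand), which is strong in endothelium, was at 59.4, 47.7 and 57.4 CPM in the WT libraries, against 47.1, 75.2 and 65.2 CPM in the cKO libraries. Its highest and its lowest library were both from Zeb2 cKO hearts. Its log2 fold change was 0.19 (SE 0.20), and 0.10 without WT replicate 2. It was 0.36 (SE 0.17, unadjusted p = 0.0863, edgeR) without Zeb2 cKO replicate 1 and 0.037 (SE 0.21) without Zeb2 cKO replicate 2.

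Itga5 (ENSMUSG00000000555, chromosome 15, 103344286 to 103366763, minus strand), the main fibronectin receptor of growing vessels, was at 28.4, 27.96 and 33.0 CPM in the WT libraries, against 23.5, 25.3 and 36.5 CPM in the cKO libraries. The log2 fold change was -0.067 (SE 0.19), and -0.11 without WT replicate 2. Zeb2 cKO replicate 3 was the highest library, and with it left out the log2 fold change was -0.29 (SE 0.14, unadjusted p = 0.0923, edgeR). Itga1 (ENSMUSG00000042284, chromosome 13, 114953096 to 115101964, minus strand), a receptor for basement membrane collagen on smooth muscle and capillary cells, was at 72.7, 57.0 and 75.5 CPM in the WT libraries, against 59.2, 72.5 and 79.6 CPM in the cKO libraries. For Itga1 the log2 fold change was 0.043 (SE 0.17), and -0.070 without WT replicate 2. Unlike the fibroblast collagen receptor Itga11, Itga1 was lowest in WT replicate 2, as were 34.6% of all tested genes. Lowest there were also 7 of 8 cardiomyocyte, 6 of 8 endothelial and 7 of 8 mural cell markers. The other 2 endothelial markers and the other mural cell marker were highest there. Their part was not tested.

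With all libraries, the largest differences among the remaining genes were those of the vitronectin receptor subunits Itgav and Itgb5. Without WT replicate 2, Itgb3 differed most among them, by 0.17 (SE 0.25) on the log2 scale. Itgav (ENSMUSG00000027087, chromosome 2, 83724397 to 83806916, plus strand), which with its beta partners binds vitronectin and latent TGF-beta, was at 34.9, 83.1 and 45.4 CPM in the WT libraries, against 31.6, 34.7 and 45.7 CPM in the cKO libraries. Its log2 fold change was -0.55 (SE 0.33, unadjusted p = 0.142, edgeR) and -0.10 (SE 0.18) without WT replicate 2. Itgb5 (ENSMUSG00000022817, chromosome 16, 33829665 to 33949338, plus strand) was at 53.7, 138 and 61.7 CPM in the WT libraries, against 52.2, 50.8 and 55.4 CPM in the cKO libraries. It had the smallest unadjusted p of the 10 genes, 0.0960 (edgeR), at a log2 fold change of -0.68 (SE 0.35). Without WT replicate 2 the log2 fold change was -0.13 (SE 0.10), and the remaining libraries lay within a 1.22-fold range. WT replicate 2 was 2.16 times the mean of the other libraries for Itgav and 2.52 times for Itgb5. All 8 macrophage, all 8 fibroblast and all 8 scar fibroblast markers were highest in that library as well. Lowest in it were 7 of 8 cardiomyocyte, 6 of 8 endothelial and 7 of 8 mural cell markers. Their part was not tested.

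With WT replicate 1 left out, Itgav had a log2 fold change of -0.78 (unadjusted p = 0.0350) and Itgb5 of -0.92 (unadjusted p = 0.0284), and the adjusted p of both was 0.596 from edgeR. In that comparison 5.49% of all tested genes were lower at an unadjusted p under 0.05. Itgb5 was then lower in every Zeb2 cKO library, as were 12.1% of the tested genes.

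Itgb1 (ENSMUSG00000025809, chromosome 8, 128685654 to 128733200, plus strand), which most alpha subunits need to reach the cell surface, was at 216, 303 and 254 CPM in the WT libraries, against 194, 205 and 257 CPM in the cKO libraries. The groups overlapped through Zeb2 cKO replicate 3, which lay above both WT replicates 1 and 3. The log2 fold change was -0.24 (SE 0.19), and -0.10 without WT replicate 2. Itgb3 (ENSMUSG00000020689, chromosome 11, 104608000 to 104670476, plus strand), with 64 to 148 counts per library, was at 1.70, 2.85 and 2.14 CPM in the WT libraries, against 1.98, 1.71 and 2.75 CPM in the cKO libraries. Its log2 fold change was -0.054 (SE 0.27), and 0.17 without WT replicate 2. Its platelet partner Itga2b was at 0.501 to 1.02 CPM over the libraries. WT replicate 2, the highest library for Itgb3, was the highest for 2 of 8 platelet markers and the lowest for 1, and the 8 markers summed to 9.07 CPM there and to 5.28 to 9.25 CPM in the others. The platelet marker Gp6 had 0 to 3 counts per library. Their part in the level of Itgb3 was not tested.

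Promoter sequence from RefSeq (GRCm38.p6) was held for 7 of the 10 genes, as windows of 300 bases from 250 before to 50 after the annotated start. They were searched for CACCTG and its reverse complement CAGGTG, the E-box letters that ZEB proteins are known to bind. The letters were present in 2 of the 7 windows, those of Itga11 and Itgb5, against 20.2% of all 32851 windows of this length. Itga8, Itga1, Itga5, Itgav and Itgb1 held none in this window. The bases upstream of both the RefSeq and the Gencode start are shown for the 2 genes with the letters, and capitals mark the E-box. In Itga11 it lies 121 to 116 bases upstream of the RefSeq start, and in Itgb5 109 to 104 bases upstream.
Itga11, chr9:62677605-62677825, plus strand: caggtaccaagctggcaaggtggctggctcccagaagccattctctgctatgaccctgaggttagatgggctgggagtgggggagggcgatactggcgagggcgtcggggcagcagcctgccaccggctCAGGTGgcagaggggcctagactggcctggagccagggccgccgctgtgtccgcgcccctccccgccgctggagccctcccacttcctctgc
Itgb5, chr16:33829415-33829664, plus strand: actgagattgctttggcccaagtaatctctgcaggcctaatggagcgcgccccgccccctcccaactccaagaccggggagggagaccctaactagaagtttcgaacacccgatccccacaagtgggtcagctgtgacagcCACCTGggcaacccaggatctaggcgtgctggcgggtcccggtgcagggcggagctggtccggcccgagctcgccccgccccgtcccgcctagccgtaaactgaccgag
The 7 windows were rich in CpG, with 12 to 27 CpG pairs each beside a median of 7.0 over all windows, and TATAAA was found on the sense strand in 0 of the 7, against 8.32% of all windows. These matches are letters in a window and were not tested for binding.

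The makeup of the alpha subunits within a library does not depend on library scaling. Of the summed CPM per kilobase of the 7 alpha genes, Itga7 made up 30.3%, 14.3% and 27.9% in WT replicates 1, 2 and 3, against 34.4%, 27.7% and 27.0% in the cKO libraries. The means were 24.1% ± 8.61 and 29.7% ± 4.09 (SD, n = 3 each), a difference of 5.58 percentage points (exact permutation test, two-sided p = 0.6), which was 0.654 percentage points without WT replicate 2. Itga11 made up 15.3% in WT replicate 2 and 1.72% to 3.56% in the others, and Itgav made up 22.8% there and 10.1% to 13.01% in the others. The share of Itga5 lay between 16.1% and 21.01% in every library. Among the beta genes, Itgb5 made up 34.2% in WT replicate 2 and 19.8% to 23.4% in the others, with Itgb1 at 65.4% against 76.0% to 79.7%.

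**Figure D3:**
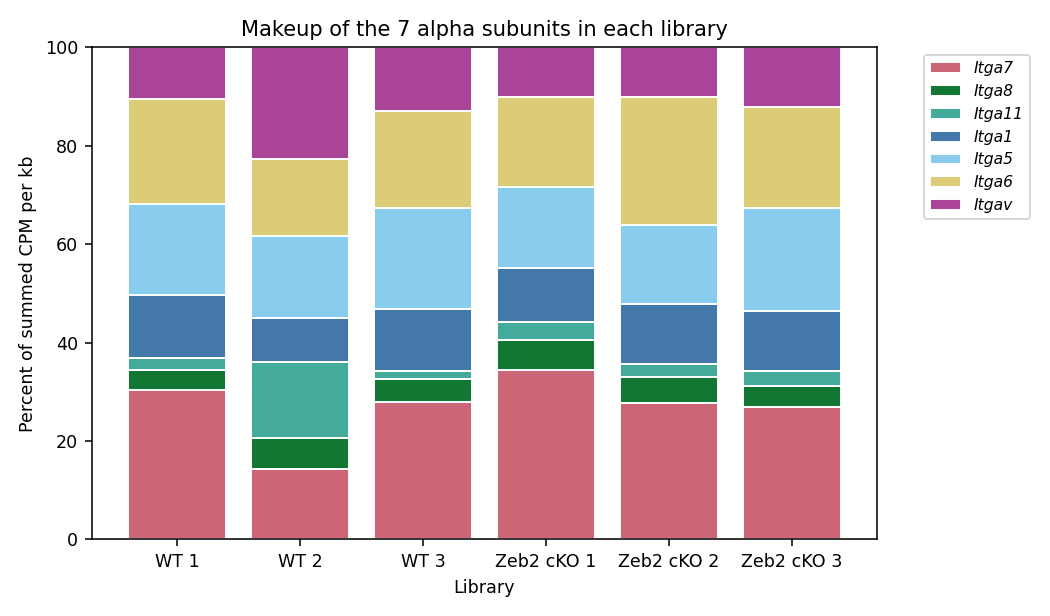
Stacked bars of the percent of summed CPM per kilobase taken by each of the 7 alpha integrin genes in each library. Itga7 takes 14.3% in WT replicate 2 and 27.0% to 34.4% elsewhere, while Itgav and Itga11 are widest in WT replicate 2.

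The muscle and the fibroblast members were set against each other as a log2 ratio. It is the log2 CPM of Itga7 minus the mean of the log2 CPM of Itga8 and that of Itga11. The ratio was 3.61, 0.93 and 3.69 in WT replicates 1, 2 and 3, against 3.28, 3.30 and 3.32 in the cKO libraries. The SD was 0.022 over the cKO libraries and 1.57 over the WT libraries, where WT replicate 2 was low and the other two lay close together. The difference of the means was 0.56 (exact permutation test, two-sided p = 1). Without WT replicate 2 it was -0.35, with both remaining WT libraries above all Zeb2 cKO libraries (exact permutation test, two-sided p = 0.1, the smallest this design allows).

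The genes whose levels followed a member most closely over the 6 libraries were found by the root mean square difference of log2 CPM, each gene centred on its own mean, among 5888 genes of at least 10 CPM. Closest to Itga7 were Mrs2, a magnesium channel of mitochondria, at 0.013, the kinase gene Map3k4 at 0.045 and Arhgap44 at 0.048, where the median gene was at 0.34. Closest to Itga11 were the matrix gene Thbs2 at 0.29, the secreted guidance factor Slit3 at 0.30 and the IGF-binding Igfbp4 at 0.30, where the median gene was at 1.07. Closest to Itgb1 were Ckap4 of the endoplasmic reticulum at 0.028, the glucosylceramide synthase gene Ugcg at 0.030 and Herpud2 at 0.041, where the median gene was at 0.29. The points share the same 6 libraries, and for Itga7, Itga11 and Itgb1 alike the library farthest from the mean was WT replicate 2.

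A further 9 integrin genes were examined in the same way. All 9 were tested, 0 were called and 0 had an unadjusted p under 0.05. Below 0 were 6, with a median log2 fold change of -0.17, beside 51.4% of all tested genes. Without WT replicate 2, 3 were below 0 (49.1% of all genes) and the median was 0.021. The collagen receptor gene Itga2 was at 0.743, 2.28 and 1.04 CPM in the WT libraries, against 0.659, 0.691 and 0.912 CPM in the cKO libraries (log2 fold change -0.85, SE 0.44, and -0.24 without WT replicate 2). Itgb6, a partner of alpha V known from epithelia, was at 20.3, 11.5 and 21.6 CPM in the WT libraries, against 18.1 to 29.0 CPM in the cKO libraries (log2 fold change 0.49, SE 0.28, and 0.26 without WT replicate 2). Itga4, which binds fibronectin and VCAM1 and is carried by many leukocytes, was at 13.8 CPM in WT replicate 2 and at 4.75 to 5.62 CPM in the others (log2 fold change -0.65, SE 0.39, and -0.021 without WT replicate 2).

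On the inner side of the membrane, 44 of 45 listed genes of integrin adhesions were tested, and the kindlin gene Fermt1 was at 0 counts in every library. None of the 44 was called (edgeR), and 1, Pdlim7, had an unadjusted p under 0.05, as did 1.9% of all tested genes. There were 29 genes below 0 and 15 above, with a median log2 fold change of -0.068, where 51.4% of all genes were below 0. Without WT replicate 2, 31 were below 0 with a median of -0.058, where 49.1% of all genes were below 0. Pdlim7, a PDZ and LIM protein of actin bundles, was at 15.3, 17.4 and 12.0 CPM in the WT libraries, against 8.83, 11.7 and 11.5 CPM in the cKO libraries (log2 fold change -0.48, SE 0.18, unadjusted p = 0.0343, adjusted p = 0.957). All its Zeb2 cKO libraries were below all WT libraries, and the log2 fold change was -0.35 without WT replicate 2. The docking protein gene Nedd9 also separated the groups, at 38.3, 86.4 and 38.5 CPM in the WT libraries, against 32.1, 32.7 and 35.7 CPM in the cKO libraries (log2 fold change -0.70, SE 0.33, and -0.20 without WT replicate 2). A separation with lower Zeb2 cKO libraries was thus seen in 2 of 44 genes, against 2.97% of all tested genes. Parvg, the parvin of blood cells, differed by -0.78 (SE 0.40) on the log2 scale, or -0.24 without WT replicate 2.

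The extracellular ligands were grouped by the receptor class they serve. Of 11 laminin chain genes, which serve Itga7 and Itga6, 10 were tested, 0 had an unadjusted p under 0.05, and the median log2 fold change was 0.082, or -0.033 without WT replicate 2. Lama1 was under the filter, with 2 to 6 counts per library. Lamc1, the gamma chain of most cardiac laminins, was at 182, 261 and 187 CPM in the WT libraries, against 145, 159 and 217 CPM in the cKO libraries (log2 fold change -0.27, SE 0.23, and -0.084 without WT replicate 2). Lamc3, a less abundant laminin chain, differed by 0.92 (SE 0.54) on the log2 scale, and by 0.58 without WT replicate 2.

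The 11 collagen chain genes, ligands of Itga1 and Itga11, were all below 0 with all libraries and 9 of 11 without WT replicate 2, beside 51.4% and 49.1% of all genes. Their median log2 fold change was -0.46, or -0.091 without WT replicate 2, and 0 had an unadjusted p under 0.05. Col1a1, a chain of the main scar collagen, was at 122, 725 and 129 CPM in the WT libraries, against 85.4, 106 and 161 CPM in the cKO libraries (log2 fold change -1.47, SE 0.73, and -0.091 without WT replicate 2). Col3a1 differed by -1.48 (SE 0.75) on the log2 scale and Col5a2 by -1.23 (SE 0.63), and without WT replicate 2 these were -0.0082 and -0.11. Summed over the 11 genes, collagen stood at 9209 CPM in WT replicate 2 and at 1951 to 3226 CPM in the other libraries.

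Of 16 other ligands, chiefly of the fibronectin and vitronectin receptors, 14 were below 0, beside 51.4% of all genes. The median log2 fold change of the 16 was -0.79. With WT replicate 2 left out, 11 were below 0 (49.1% of all genes) and the median was -0.11. The osteopontin gene Spp1 was the only gene of this group with an unadjusted p under 0.05, against 0.861% of all tested genes in this direction. It was at 3.35, 36.0 and 3.70 CPM in the WT libraries, against 1.94, 0.991 and 3.11 CPM in the cKO libraries (log2 fold change -2.83, SE 1.01, and -0.79 without WT replicate 2). The matricellular genes Ccn2 and Thbs1 differed by -1.49 (SE 0.63) and -1.75 (SE 0.77) on the log2 scale, values that were -0.48 and -0.21 without WT replicate 2.

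**Figure D4:**
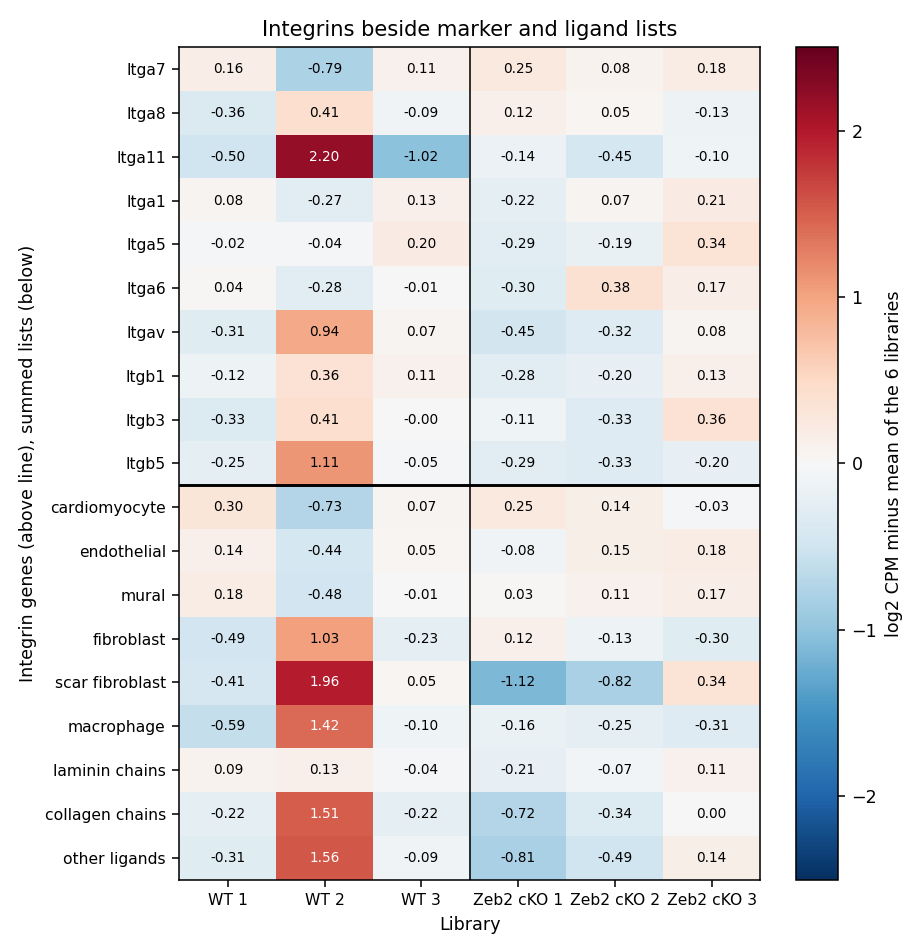
Log2 CPM minus the mean of the 6 libraries, for each integrin gene above the line and for summed marker and ligand lists below it, with WT libraries on the left and Zeb2 cKO libraries on the right. In WT replicate 2, Itga7 is at -0.79 beside cardiomyocyte markers at -0.73, mural cell markers at -0.48 and endothelial markers at -0.44. Itga11 is at 2.20 there, beside scar fibroblast markers at 1.96, other ligands at 1.56, collagen chains at 1.51 and macrophage markers at 1.42. Itga11 and scar fibroblast markers lie close in WT replicate 1 (-0.50 and -0.41). They lie apart in WT replicate 3 (-1.02 and 0.045) and Zeb2 cKO replicate 1 (-0.14 and -1.12). Whether they vary together was not tested.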

How the data were processed

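RNA-seq was performed on heart tissue in 3 WT and 3 Zeb2 cKO samples. Per the methods, stranded single-end libraries were made by the authors after ribosomal RNA removal. They counted reads per gene of Gencode M4 with the STAR workflow, whose version and handling of multiply mapped reads are not given in the sources used here. They deposited raw counts per gene, in 1 table, and 0 columns were left unmatched. The submitters' processing notes name the builds GRCm38 and mm10. The authors used DESeq, which was not used here.

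Samples were grouped by title. Gene names, coordinates and lengths came from Gencode M21 (GRCm38), by which 36429 of the 38293 rows had a symbol. Genes were kept by filterByExpr, normalized with TMM and tested with glmQLFTest in edgeR 4.0.16 (R 4.3.3), the model holding genotype alone. The prior count behind log2 fold changes was 0.125. Standard errors are the log2 fold change divided by the root of F. DESeq2 1.42.0 was an alternative. For single values a two-sided exact permutation test was used, which cannot go below 0.1 at 3 against 3. Both tools were tested on simulated data. At a log2 fold change of 1, edgeR recovered 42 of 100 changed genes and DESeq2 40. At a log2 fold change of 2 they recovered 97 and 95 of 100. A gene with a smaller change can thus be missed. Alternatives were other scalings, filters, dispersions and lengths, a replicate block and leaving out each library. The labels do not state that each library came from its own animal. The paper states in general that its sample numbers are biological replicates, without naming the RNA-seq libraries. The p-values measure the spread between these libraries, and how much of it is technical is not known. Depth was at least 14301225 counts outside mitochondrially encoded genes per library, and the counts of Itgb3, the lowest member, were 64 to 148.

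The members and gene lists were chosen with earlier results of these data known. Named were the members, the 3 genes of each ligand, adhesion or integrin list with the smallest p, and the closest genes by level. One gene that this rule names is not reported here. Lama1, Fermt1, Itga2b and Gp6 were named after their values were seen. Stretches of at least 75 bases and 95% identity (BLAST 2.17.0) cover 6.25% of the longest Itga1, 7.56% of the longest Itga6 and 10.5% of the longest Itgb5 transcript, all shared with genes that are no rows of the table.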

Additional observations from a re-analysis of the deposited data

How the results depend on the processing

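Alternatives covered the scaling, the filter, the tool, the dispersions, a replicate block and leaving out each library. The number of called integrin genes was 0 in each of them. Over all genes it was also 0 with edgeR, beside 122 to 1134 genes at an unadjusted p under 0.05, while DESeq2 called 1 higher gene, Slc46a2 (log2 fold change 4.20, adjusted p = 0.0382), beside 429 at an unadjusted p under 0.05. Without a filter on low counts 600 genes had an unadjusted p under 0.05. The median log2 fold change of the members ran from -0.28 (without Zeb2 cKO replicate 3) to -0.0034 (without Zeb2 cKO replicate 2) with a library left out. Members whose groups do not overlap numbered 0 to 4 lower, the 4 being Itga5, Itgav, Itgb1 and Itgb5 without Zeb2 cKO replicate 3 (10.8% of all genes), and 0 to 1 higher, the 1 being Itga11, Itga6 or Itga7 without WT replicate 2, Zeb2 cKO replicate 1 or Zeb2 cKO replicate 2.

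The log2 fold change of Itga8 turned to 0.0013 with upper-quartile scaling, to 0.013 without the filter and to 0.026 with the replicate block. With a library left out it ran from -0.16 to 0.24 for Itga8 and from -1.63 to 0.52 for Itga11. It ran from -0.070 to 0.15 for Itga1, from -0.29 to 0.052 for Itga5 and from -0.28 to 0.17 for Itgb3. The other 5 members did not change sign, but the sizes varied. They ran from 0.038 to 0.44 for Itga7, 0.037 to 0.36 for Itga6 and -0.37 to -0.10 for Itgb1. For Itgav the range was -0.78 to -0.10 and for Itgb5 -0.92 to -0.13. The log2 ratio of Itga7 to Itga8 and Itga11 differed by -0.35 to 1.03, and the share of Itga7 by 0.654 to 8.63 percentage points.

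The labels do not tie equal replicate numbers to a shared animal or batch. Deviations from the group means correlated at 0.088, -0.14 and -0.087 over genes for numbers 1, 2 and 3, and 0 members were called with the replicate block, under which the log2 fold change of Itga11 was -0.41 and the median of the members -0.070. No cause was tested for these changes. Depth limits Itgb3 most, with 64 to 148 counts per library.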
